A study of Homo sapiens with 10 samples.

Results

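Genes of the TNF superfamily were profiled in NB4 cells, an established line from a patient with acute promyelocytic leukemia. The family was taken as the protein-coding genes whose symbol begins with TNFSF or TNFRSF, together with TNF, LTA, LTB, FAS, FASLG, CD27, CD70 and CD40LG. This gave 41 genes, 18 ligands and 23 receptors, among the 60603 genes of the tables, and LTBR, the lymphotoxin beta receptor, was not analysed here. For the knock-down (KD) of GSE1, a subunit of transcriptional repressor complexes that hold the demethylase LSD1, cells were collected 48 h after transduction. They carried the empty lentiviral vector pLKO.1 puro (EV) or that vector with either of 2 short hairpins against GSE1, called shA1 and shB2. For the inhibition of LSD1, cells were treated for 24 h with 2 µM MC2580 or with its solvent DMSO. Each of the 5 conditions was sequenced by mRNA-seq as 2 replicates, 10 libraries in all. The labels call the compound MC280 in the titles and MC2580 in the treatment field, and both were read as MC2580. NB4 is a single established line, both hairpin vectors carry a drug resistance cassette as EV does, and EV is an empty vector that holds no unrelated hairpin.

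Ligands of this superfamily are mostly membrane-bound trimers, some of which are cut from the cell surface, and each binds 1 or a few receptors. Receptors with a death domain, such as FAS and those for TRAIL, recruit FADD and caspase-8 and can start apoptosis, while TNFRSF1A can signal through TRADD and RIPK1 to NF-κB as well. Receptors without a death domain bind TRAF adaptors and act mainly through NF-κB and JNK, and decoy receptors bind ligand without passing on a death signal. In myeloid cells, TNF and its receptors are known for inflammatory signalling, and TRAIL and its receptors for the death of leukemic blasts.

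The tables give a mean over libraries (base mean, in normalised read counts), a log2 fold change, its standard error (SE) and a Wald test p-value, adjusted over all genes tested, as the authors obtained them from DESeq2. They hold no value per library, so no gene is shown replicate by replicate and the spread between the 2 replicates enters only through the SE. A gene was called upregulated or downregulated when its log2 fold change exceeded 1 in size and its adjusted p was below 0.01. GSE1 itself, with a base mean of 2963, had a log2 fold change of -0.77 (SE 0.13, adjusted p = 2.47e-07) with shA1 and of -0.79 (SE 0.14, adjusted p = 7.66e-08) with shB2. Its level was therefore 0.587 and 0.580 times that in EV, and under MC2580 its log2 fold change was 0.07 (SE 0.20). The markers of the labelled promyelocyte were present, MPO with a base mean of 506760 in the KD experiment, except ELANE, the neutrophil elastase gene, whose base mean was 1.10. Of the markers of other cell types, HBA1 of erythroid cells was at 0 in both experiments and MS4A1 of B cells was at 0.217 or lower. CD3D of the T cell receptor complex had a base mean of 866 while CD3E of the same complex was at 1.55, and CD79A of B cells stood at 121.

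GSE1 KD with shA1 upregulated 13 of the 27 superfamily genes that could be tested, 4 ligands and 9 receptors, and downregulated 0 by the authors' DESeq2 test, with 0 below EV at an unadjusted p under 0.05 too, a cut that 16.1% of all genes tested passed below EV and 19.1% above it. The ligands were TNFSF10 (TRAIL), TNFSF9, TNFSF13B (BAFF) and LTB. The receptors were TNFRSF10B, TNFRSF10C, TNFRSF10D, TNFRSF1B, TNFRSF4, TNFRSF8, TNFRSF12A, TNFRSF21 and TNFRSF25. Among all 16673 genes tested, 4.32% were upregulated and 0.786% downregulated. At an adjusted p-value under 0.01 with no threshold on size, 18 of the 27 genes passed, all with a positive log2 fold change, against 19.3% of all genes tested in either direction. The median log2 fold change was 1.22 over the 27 genes and -0.0016 over all genes tested. With shB2, 11 of the 29 genes tested were upregulated and 1, LTB, was downregulated, where 5.58% and 2.91% of all 17913 genes tested moved up and down. The 11 were TNFSF10, TNFSF9, TNFSF13B, FAS, TNFRSF10B, TNFRSF10C, TNFRSF10D, TNFRSF11B, TNFRSF1B, TNFRSF4 and TNFRSF21. At an adjusted p-value under 0.01 alone, 16 of the 29 passed, 13 up and 3 down, against 26.3% of all genes, and the median was 1.19 over the 29 genes and 0.0012 over all. Both hairpins were compared with the same EV libraries, so the 2 sets of fold changes are not independent of each other. With MC2580, 2 of the 29 genes tested were upregulated, TNFRSF1B and TNFRSF10B, and 0 were downregulated by the authors' DESeq2 test, while 4 of the 29 were higher and 1 lower at an unadjusted p under 0.05, where 4.2% of all genes tested were higher and 1.57% lower. Of all 18554 genes tested there, 0.587% were upregulated and 0.0162% downregulated, and the median log2 fold change was 0.27 over the 29 genes and -0.0012 over all.

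Promoters are shown for TNFRSF1B, TNFSF10, TNFSF13B, TNFSF9 and LTB, a selection from the genes above, and each holds a marked motif. They were taken from RefSeq on GRCh38.p14, as 250 bases before and 50 bases after an annotated start, read along the gene's strand. A RefSeq promoter was found for 27 of the 41 genes, some with more than 1 start, and a gene was counted as holding a motif when any of its promoters did. Of these, 6 hold GAAA and GAAA separated by 2 bases on either strand, the core of an interferon-stimulated response element, where 4.38% of all 27305 genes with a promoter hold it. They are FASLG, TNFRSF1B, TNFSF10, TNFSF13B, TNFSF14 and TNFSF9. Of these 6, FASLG was not tested and TNFSF14 was not called in any comparison. None of the other upregulated genes of the family, TNFRSF10B included, is among the 6, some perhaps for want of a RefSeq promoter. Capitals mark this motif in the first 4 sequences. It reads as its reverse complement in TNFRSF1B and TNFSF10. In TNFRSF1B it ends at the base just before the start, and in TNFSF10 it lies 187 to 178 bases before it. TNFSF13B has the motif 71 to 62 and TNFSF9 194 to 185 bases before the start shown. In LTB the capitals mark GGG and TTTCC separated by 2 bases, an NF-κB core, as its reverse complement 86 to 77 bases before the start, which LTB and TNFRSF9 hold among the 27 genes and 2.33% of all genes with a promoter.
TNFRSF1B, chr1:12166741-12167040, plus strand: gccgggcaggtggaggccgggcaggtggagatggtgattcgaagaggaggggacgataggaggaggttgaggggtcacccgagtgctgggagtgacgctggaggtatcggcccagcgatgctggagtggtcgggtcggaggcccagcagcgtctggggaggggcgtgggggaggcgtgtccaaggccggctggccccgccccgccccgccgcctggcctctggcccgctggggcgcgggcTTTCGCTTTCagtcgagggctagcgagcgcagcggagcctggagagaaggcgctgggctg
TNFSF10, chr3:172523381-172523680, minus strand: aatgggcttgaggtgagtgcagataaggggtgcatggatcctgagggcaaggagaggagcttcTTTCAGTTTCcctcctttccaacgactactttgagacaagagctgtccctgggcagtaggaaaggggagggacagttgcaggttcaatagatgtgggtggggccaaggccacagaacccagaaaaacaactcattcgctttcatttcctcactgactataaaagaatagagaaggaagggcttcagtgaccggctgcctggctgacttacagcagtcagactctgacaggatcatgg
TNFSF13B, chr13:108269468-108269767, plus strand: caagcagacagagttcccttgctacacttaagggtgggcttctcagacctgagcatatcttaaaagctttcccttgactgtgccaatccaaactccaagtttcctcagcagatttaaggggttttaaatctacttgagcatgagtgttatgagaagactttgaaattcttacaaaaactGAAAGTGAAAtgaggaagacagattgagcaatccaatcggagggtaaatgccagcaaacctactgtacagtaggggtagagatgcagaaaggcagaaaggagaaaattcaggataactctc
TNFSF9, chr19:6530776-6531075, plus strand: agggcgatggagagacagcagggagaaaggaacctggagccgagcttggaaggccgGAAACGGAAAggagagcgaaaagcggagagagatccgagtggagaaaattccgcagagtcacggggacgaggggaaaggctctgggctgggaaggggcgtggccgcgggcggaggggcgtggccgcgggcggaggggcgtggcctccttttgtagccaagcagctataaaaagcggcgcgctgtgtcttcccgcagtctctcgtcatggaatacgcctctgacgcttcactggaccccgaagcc
LTB, chr6:31582376-31582675, minus strand: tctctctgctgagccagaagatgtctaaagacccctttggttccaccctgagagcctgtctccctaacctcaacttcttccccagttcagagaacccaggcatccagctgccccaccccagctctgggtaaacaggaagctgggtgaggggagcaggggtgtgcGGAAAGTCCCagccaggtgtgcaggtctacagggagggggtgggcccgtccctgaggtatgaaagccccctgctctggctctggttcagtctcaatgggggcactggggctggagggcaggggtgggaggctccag
The promoter of TNF, the neighbour of LTB, holds neither motif in its window. The other motifs searched, on both strands, were looser forms of these 2, an ETS core and an AP-1 site. GGG and TTCC separated by 3 bases, which takes in the NF-κB core, was held by 4 of the 27 genes and 7.83% of all genes with a promoter. GGAA and GAAA separated by 2 bases was held by TNFSF10 among the 27 and by 3.47% of all. GGAAGT, the ETS core, was held by 8 of the 27 and 26.6% of all, and TGA and TCA separated by 1 base, the AP-1 site, by 6 of the 27 and 9.37%. A match to these letters is not a measurement of binding.

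The level of a gene in each condition was derived from its base mean and fold changes, and is an implied mean normalised count with no error of its own. Levels can be set against each other between genes only per kilobase of transcript. On that scale TNFRSF1A, the main receptor of soluble TNF, was the highest of the family in EV at 2771 normalised counts per kilobase, followed by CD70 at 666, TNF at 503 and TNFRSF1B at 450.5. In DMSO the order began with TNFRSF1A at 3216, CD70 at 855, TNFRSF25 at 522 and TNFRSF1B at 427. Of the 41 genes, 20 reached a base mean of 50 in each experiment and 18 were under 50 in both. TNFRSF13B, TNFRSF17, TNFRSF6B and TNFSF8 were at 0 in both.

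**Figure D1:**
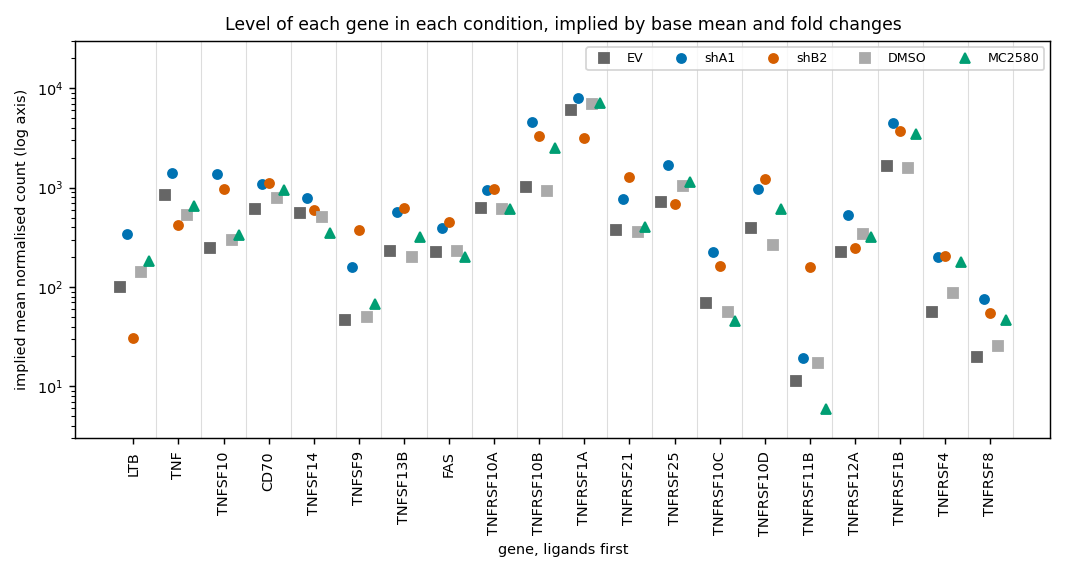
Implied mean normalised count (log axis) of 20 superfamily genes in EV, shA1 and shB2 (48 h) and in DMSO and MC2580 (24 h), 1 symbol per condition and with no error bar because no value per library was available. TNFRSF1B and TNFRSF10B stand higher in shA1, shB2 and MC2580 than in their controls, while TNF, LTB and TNFRSF1A stand above EV in shA1 and below it in shB2.

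TNFSF10 (TRAIL), the ligand of the TRAIL receptors, showed the largest fold change with shA1 among the upregulated genes of the family. Its implied level was 249 normalised counts in EV, 1384 with shA1 and 973 with shB2, and 299 in DMSO and 334 with MC2580. Both hairpins therefore stood above EV, whereas MC2580 and DMSO were close. The log2 fold change was 2.48 (SE 0.24, adjusted p = 3.03e-23) with shA1, 1.97 (SE 0.24, adjusted p = 4.71e-15) with shB2 and 0.16 (95% interval -0.48 to 0.80) with MC2580.

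Of the receptors that TRAIL binds, TNFRSF10B (DR5), which carries a death domain, rose in all 3 comparisons. The implied level was 1017 in EV, 4531 with shA1 and 3274 with shB2, and it was 916 in DMSO and 2529 with MC2580. These are log2 fold changes of 2.16 (SE 0.15, adjusted p = 1.47e-45), 1.69 (SE 0.15, adjusted p = 3.38e-28) and 1.47 (SE 0.26, adjusted p = 1.29e-05). TNFRSF10A (DR4), the other TRAIL receptor with a death domain, stayed under the threshold on size, at 0.59 (SE 0.15) and 0.64 (SE 0.15) with the hairpins and at -0.0016 (SE 0.24) with MC2580. TNFRSF10D, a decoy with a truncated death domain, rose with shA1 by 1.29 (SE 0.19, adjusted p = 7.19e-10) and with shB2 by 1.65 (SE 0.19, adjusted p = 4.01e-16). With MC2580 its log2 fold change was 1.19 (SE 0.32), but the adjusted p of 0.0232 missed the threshold. TNFRSF10C, a decoy anchored in the membrane by a lipid, was lower in level, at 69.2 in EV, and rose by 1.69 (SE 0.35) with shA1 and 1.22 (SE 0.35) with shB2. These 4 receptor genes lie side by side on chromosome 8 (GRCh38, 23020133 to 23225102) and are similar in sequence, so that reads shared between them were divided by RSEM. In GENCODE release 44, 33% of the exonic bases of TNFRSF10C lie within other genes of the same strand, and 16.7% of those of TNFRSF10A lie opposite antisense genes. The library kit does not mark strand, so reads of these partners cannot be told apart.

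TNFRSF11B (osteoprotegerin), a secreted decoy that binds TRAIL and the bone ligand RANKL, rose with shB2 from a low level. The implied level was 11.4 in EV, 19.4 with shA1 and 159 with shB2, and the log2 fold change with shB2 was 3.81 (SE 0.59, adjusted p = 2.39e-09). With shA1 it was 0.77 (95% interval -0.45 to 2.00), and with MC2580 -1.53 (95% interval -3.92 to 0.86), an interval that spans both directions. TNFRSF6B, the soluble decoy of FAS ligand, was at 0, and all its exonic bases also belong to a readthrough transcript with RTEL1.

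FAS, the receptor of FAS ligand, had an implied level of 223 in EV, 393 with shA1 and 447 with shB2. The log2 fold change was 0.82 (SE 0.23, adjusted p = 0.00299) with shA1 and 1.01 (SE 0.23, adjusted p = 0.00011) with shB2, so that the gene lay just outside the threshold on size in the former and just inside it in the latter. FASLG itself had a base mean of 3.18 and no adjusted p-value. TNFRSF21 (DR6) went from 375 in EV to 766 with shA1 and 1266 with shB2, log2 fold changes of 1.03 (SE 0.17, adjusted p = 6.48e-08) and 1.75 (SE 0.17, adjusted p = 1.36e-22). Under MC2580 the values were 0.18 (SE 0.27) for TNFRSF21 and -0.22 (SE 0.33) for FAS.

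TNFRSF1B (TNFR2), the receptor that binds membrane-bound TNF and signals through TRAF2, rose in all 3 comparisons with a SE of 0.20 or lower. Its implied level was 1661 in EV, 4456 with shA1 and 3738 with shB2, and 1574 in DMSO against 3464 with MC2580. The fold change was 2.68 with shA1 (log2 1.42, SE 0.12, adjusted p = 1.51e-28), 2.25 with shB2 (log2 1.17, SE 0.12, adjusted p = 1.17e-19) and 2.20 with MC2580 (log2 1.14, SE 0.20, adjusted p = 5.21e-06). Its ligand TNF and the other TNF receptor, TNFRSF1A, had log2 fold changes of 0.30 (95% interval -0.18 to 0.78) and 0.03 (95% interval -0.32 to 0.39) with MC2580.

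Of the other receptors that bind TRAFs, TNFRSF4 (OX40), known from activated T cells, rose from 56.3 in EV to 200.03 with shA1 and 205 with shB2. The log2 fold changes were 1.83 (SE 0.35, adjusted p = 2.71e-06) and 1.87 (SE 0.35, adjusted p = 9.46e-07), and with MC2580 the value was 1.04 (SE 0.41) with an adjusted p of 0.428. TNFRSF8 (CD30) was low, 19.7 in EV and 76.2 with shA1, and passed the threshold with shA1 at an adjusted p of 0.00835 but not with shB2, where the adjusted p was 0.0561. TNFRSF12A (Fn14), the receptor of the ligand TWEAK, rose with shA1 by 1.22 (SE 0.24, adjusted p = 6.29e-06), and with shB2 its log2 fold change was 0.11 (SE 0.25). TNFRSF14 (HVEM) had log2 fold changes of 1.38 (SE 0.49) and 1.17 (SE 0.49) with adjusted p-values of 0.0222 and 0.0529, and 13.3% of its exonic bases lie opposite an antisense gene. TNFRSF13C, the receptor of BAFF, was present at 207 in EV and had log2 fold changes of -0.09 (SE 0.29) and 0.36 (SE 0.29). TNFRSF9 and TNFRSF11A were tested at base means of 24.3 and 13.9 in the KD experiment, with SEs between 0.89 and 1.24.

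Of the ligands that act on lymphocytes, TNFSF9 (CD137 ligand), a costimulatory ligand, rose from 46.3 in EV to 158 with shA1 and 377 with shB2. The log2 fold changes were 1.77 (SE 0.37, adjusted p = 1.62e-05) and 3.02 (SE 0.36, adjusted p = 1.83e-15), and the value with MC2580 was 0.45 (95% interval -0.64 to 1.54). CD70, the ligand of CD27, passed the adjusted p-value with both hairpins and not the threshold on size, with 0.85 (SE 0.19) and 0.88 (SE 0.19). TNFSF14 (LIGHT) had values of 0.48 (SE 0.20) and 0.08 (SE 0.20), and of -0.53 (SE 0.26) with MC2580, none past the adjusted p. TNFSF9, CD70 and TNFSF14 lie in a row on chromosome 19 between 6531026 and 6670588. TNFSF13B (BAFF), a survival factor for B cells that myeloid cells make, rose from 228 in EV to 571 with shA1 and 630.1 with shB2. The log2 fold changes were 1.33 (SE 0.21, adjusted p = 8.05e-09) and 1.47 (SE 0.21, adjusted p = 7.4e-11), and 0.67 (95% interval -0.06 to 1.39) with MC2580. Its relative TNFSF13 (APRIL) had values of -0.10 (SE 0.20) and -0.22 (SE 0.20), and shares 55.5% of its exonic bases with the TNFSF12-TNFSF13 readthrough gene.

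**Figure D2:**
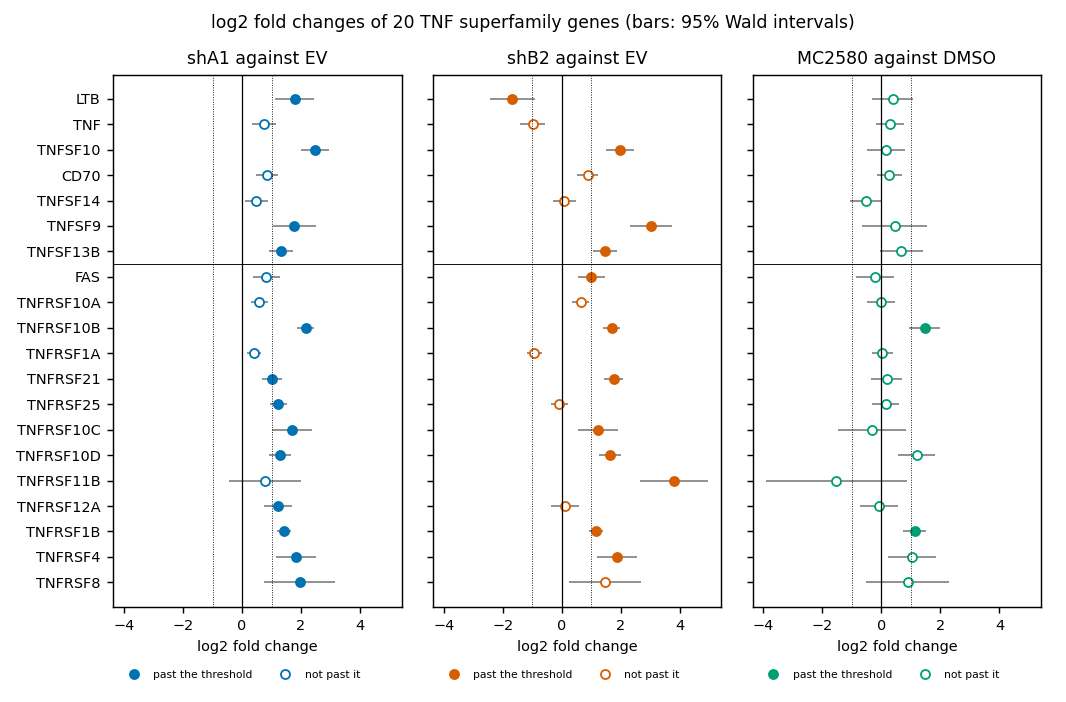
log2 fold change of 20 superfamily genes (ligands above the line, receptors below) in the 3 comparisons, with 95% Wald intervals as bars and dotted lines at a log2 fold change of 1 in either direction. Filled points passed the threshold, 13 of the genes with shA1, 12 with shB2 including LTB on the negative side, and 2 with MC2580.

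Between the hairpins, 5 of the 27 superfamily genes differed past the threshold in a Wald test of the difference of the log2 fold changes. LTB, TNF, TNFRSF1A and TNFRSF25 were lower with shB2 than with shA1 and TNFRSF11B was higher. Of all 16673 genes, 2.2% were lower and 0.828% higher with shB2 by the same threshold. The SE of the difference is an upper bound, because the EV libraries are shared. LTB, the membrane anchor of lymphotoxin, rose with shA1 and fell with shB2. The implied level was 99.1 in EV, 340 with shA1 and 31.0 with shB2, log2 fold changes of 1.78 (SE 0.34, adjusted p = 3.45e-06) and -1.68 (SE 0.38, adjusted p = 8.41e-05), and the difference was -3.45 (SE 0.51, adjusted p = 2.04e-09). TNF, 844 in EV, 1418 with shA1 and 424 with shB2, had a difference of -1.74 (SE 0.29, adjusted p = 1.58e-07). Each of its values against EV passed the adjusted p and not the threshold on size, 0.75 (SE 0.20) with shA1 and -0.99 (SE 0.21) with shB2, the latter just outside it. LTA, TNF and LTB lie within chr6:31572054-31582522 (GRCh38, major histocompatibility complex), and LTA was low, with a base mean of 16.8 and log2 fold changes of 2.32 (SE 1.01) and 1.20 (SE 1.03).

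TNFRSF1A, the most abundant receptor per kilobase, showed the same order at a high level, 6016 in EV, 7985 with shA1 and 3154 with shB2. Its log2 fold changes were 0.41 (SE 0.13) and -0.93 (SE 0.13), neither past the threshold on size. The difference was -1.34 (SE 0.18, adjusted p = 1.06e-11). TNFRSF25 (DR3), the death domain receptor of the ligand TNFSF15, was 719 in EV, 1679 with shA1 and 682 with shB2. It rose with shA1 by 1.22 (SE 0.15, adjusted p = 3.62e-15), had -0.08 (SE 0.15) with shB2, and differed by -1.30 (SE 0.21, adjusted p = 3.52e-08). For TNFRSF11B, at the low levels given above, the difference was 3.03 (SE 0.86, adjusted p = 0.00688). TNFRSF12A, TNFRSF21 and TNFSF9 differed by -1.11, 0.73 and 1.25 with adjusted p-values of 0.0164, 0.0324 and 0.109, and did not pass. TNFRSF8 and FAS, which were called with 1 hairpin each, had differences of -0.49 (95% interval -2.21 to 1.23) and 0.19 (95% interval -0.46 to 0.84), so a difference between the hairpins was not shown for them. In the 3′ untranslated regions of TNF, LTB, TNFRSF1A and TNFRSF25 there was no copy of the heptamer complementary to the seed of either hairpin's antisense strand, as given in the study's methods. The shB2 heptamer occurred in TNFRSF11B, with 2 copies, and in TNFRSF10B and TNFSF4. It was found in 11.5% of the protein-coding genes tested with shB2, and the shA1 heptamer in 1.14% of those tested with shA1. At such shares its absence from a few genes says little, and a part of the seeds in the differences was not tested.

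**Figure D3:**
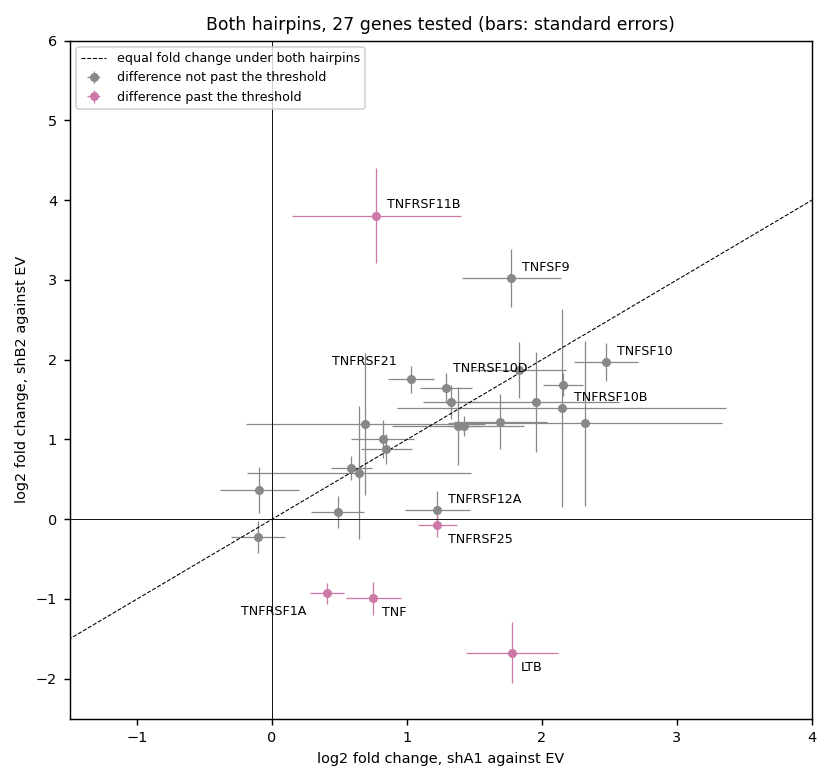
log2 fold change with shB2 against that with shA1 for the 27 superfamily genes tested with both hairpins, each against the same EV libraries, with standard errors as bars and the line of equal change dashed. LTB, TNF, TNFRSF1A and TNFRSF25 (pink) lie below the line and TNFRSF11B (pink) above it.

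The other genes of the pathway were described by lists. Of 17 adaptors and ubiquitin ligases that bind the receptors, all tested, TRAF1 was called with each hairpin, up by 1.85 (SE 0.44) and 1.80 (SE 0.44). Among all genes tested, 4.32% were upregulated with shA1 and 5.58% with shB2. FADD, the adaptor of the death receptors, had log2 fold changes of 0.01 (SE 0.12) and -0.75 (SE 0.12). Among the effectors of death receptors, CASP8, the initiator caspase of these receptors, rose by 1.07 (SE 0.10) with shA1 and 1.01 (SE 0.10) with shB2. CASP10 rose by 1.01 (SE 0.17) with shB2. Of the 10 effectors, 4 were higher and 3 lower with shA1 at an unadjusted p under 0.05, against 19.1% and 16.1% of all genes. With shB2, 4 were higher and 2 lower at this cut, against 21.2% and 19.2%. Of 10 kinases towards NF-κB and JNK, MAP3K14 (NIK) was upregulated with shA1 by 1.19 (SE 0.24) and none was called with shB2, where 6 of the 10 were higher and 0 lower at an unadjusted p under 0.05, against 21.2% and 19.2% of all genes tested. Of 14 TNF-induced and A20-binding proteins, 12 were tested with shA1 and 13 with shB2, and none was called. At an unadjusted p under 0.05, 8 were higher and 1 lower with shA1 and 5 higher and 0 lower with shB2, to be read against the shares of all genes given above for this cut. TNFAIP3 (A20), a negative regulator of NF-κB, had a log2 fold change of 1.01 with shA1 but a SE of 0.45 at a base mean of 1919.

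Of the 7 genes that process ligands, 6 were tested. ADAM17, the protease that sheds TNF, and ADAM10 were lower with shB2 than with shA1, by differences of -1.49 (SE 0.20, adjusted p = 1.28e-11) and -1.16 (SE 0.20, adjusted p = 3.39e-07). Their own values against EV were 0.78 and -0.71 for ADAM17 and 0.77 and -0.40 for ADAM10, none past the threshold on size. RHBDF1, a regulator of ADAM17, rose with shA1 by 1.73 (SE 0.33). Among 6 superfamily genes that carry other symbols, NGFR rose with both hairpins, by 4.42 (SE 1.27) and 4.17 (SE 1.28). Its base mean was 24.2, an average that takes in the hairpin libraries, and 3.27 in the MC2580 experiment, where it was not tested. RELT was not called at a base mean of 2162, and CD40 had a base mean of 3.75. With MC2580, 0 of the 58 genes of these 6 lists that were tested were called by the authors' DESeq2 test, where 0.587% of all genes were upregulated and 0.0162% downregulated. At an unadjusted p under 0.05, 1 of the 58 was higher and 2 lower, against 4.2% and 1.57% of all genes tested.

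Levels of other gene groups were set beside these values. The interferon-stimulated genes of a list of 12, 11 of them in the tables, were upregulated with shA1 in 11 of 11 cases, with shB2 in 6 and with MC2580 in 1 (IFIT3). Of all genes tested, 4.32%, 5.58% and 0.587% were upregulated in these comparisons. With MC2580, 6 of the 11 were higher and 0 lower at an unadjusted p under 0.05, against 4.2% and 1.57% of all genes. Between the hairpins, 9 of the 11 were lower with shB2 than with shA1, against 2.2% of all genes. The summed implied level of the 11 was 11656 in EV, 78096 with shA1 and 17951 with shB2, and 16686 in DMSO and 22557 with MC2580. Of 4 markers of mature myeloid cells, ITGAM (CD11b) and CD86 were upregulated in all 3 comparisons, CD14 with shB2 and LYZ with MC2580. LYZ was also higher with shA1, by 0.67 (SE 0.12), and with shB2, by 0.88 (SE 0.12), under the threshold on size. CD14 had 2.39 (SE 0.84) with shA1, at an adjusted p of 0.02, and -0.48 (SE 0.96) with MC2580. LYZ had the highest base mean of the 4, 4923 in the KD experiment and 9248 in the MC2580 experiment. The summed level of the 4 was 3746 in EV, 8482 with shA1 and 9870.3 with shB2, and 3046 in DMSO and 18575 with MC2580. The 7 promyelocyte markers, mostly MPO, summed to 729842 in EV, 439045 with shA1 and 388519 with shB2. Their sum was 768302 in DMSO and 922007 with MC2580, where none was called. CTSG and PRTN3 were downregulated with shA1 and PRTN3, CEBPE and AZU1 with shB2. CD33 went the other way, with log2 fold changes of 0.26 (SE 0.11) with shA1 and 0.43 (SE 0.11) with shB2, under the threshold on size. The 4 T cell markers summed to 1108 in EV, 1089 with shA1 and 544 with shB2. CD3D fell by 1.29 (SE 0.16) on the log2 scale with shB2. CD2 rose by 5.91 (SE 1.71) with shB2, at a base mean of only 13.1. The 3 B cell markers summed to between 126 and 162.5 in the KD experiment and to 134.5 in DMSO and 160.1 with MC2580, with none called and none at an unadjusted p under 0.05, and the 3 erythroid markers to 17.1 or less. The part of any of these groups in the superfamily values was not tested. In a bulk sample, a change in how many cells express a gene cannot be told apart from a change in RNA per cell.

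The remaining genes were too low to test or to measure with precision. 12 of the 41 had no adjusted p-value in any comparison: FASLG, CD40LG, TNFSF8, TNFSF11, TNFSF15, TNFSF18, TNFSF12-TNFSF13, TNFRSF6B, TNFRSF13B, TNFRSF17, TNFRSF18 and TNFRSF19. FASLG, at 3.18, had the highest base mean of these in the KD experiment and TNFRSF18, at 3.97, in the MC2580 experiment. TNFSF12 and CD27 were tested with shB2 and MC2580 and not with shA1, at base means of 5.29 to 6.45, and 44.7% of the exonic bases of CD27 overlap other genes, mostly on the opposite strand. TNFSF4 (OX40 ligand), at a base mean of 20.02 in the KD experiment, had values of 0.64 (SE 0.83) and 0.58 (SE 0.83). The absence of a call for such genes says little at this depth. The median SE of the genes tested was 0.24 with shA1, 0.25 with shB2 and 0.33 with MC2580, and that of all genes tested 0.21, 0.23 and 0.31.

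**Figure D4:**
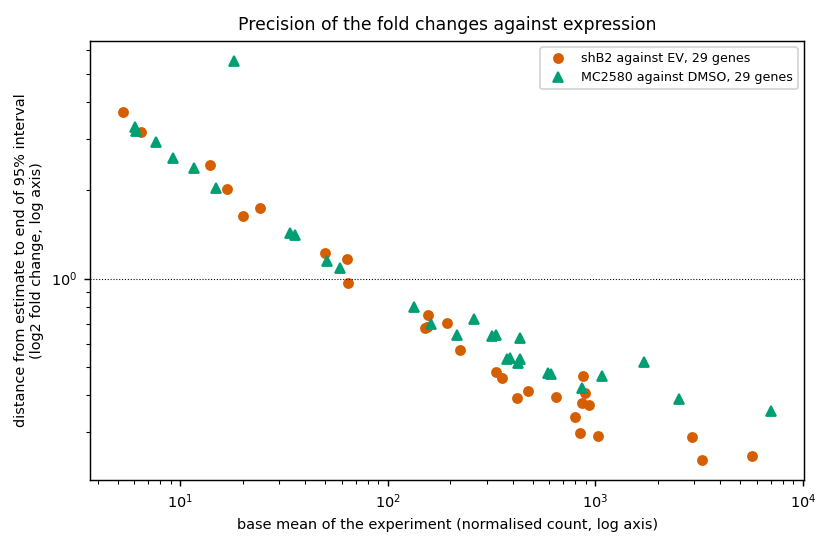
Distance from the estimate to either end of the 95% interval of the log2 fold change (log axis) against the base mean of the experiment (log axis) for the 29 superfamily genes tested with shB2 and the 29 tested with MC2580, 1 point per gene, with a dotted line at a distance of 1. Genes with a base mean under 50 had distances above 1, and at a given base mean the intervals of the MC2580 comparison were mostly wider.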

How the data were processed

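RNA from NB4 cells was sequenced after transduction with EV, shA1 or shB2 and after treatment with DMSO or MC2580, 2 libraries each. The authors prepared the libraries with TruSeq RNA v2, and the submitters' processing notes name bcl2fastq 2, FastQC 0.11.5, STAR 2.7, RSEM and DESeq2 with hg38, the last 2 without a version. The authors deposited 2 tables, one from a DESeq2 fit of EV, shA1 and shB2 and one from a separate fit of DMSO and MC2580. Each comparison has a log2 fold change with its standard error as the authors deposited it. A Wald p-value and a p-value adjusted by Benjamini-Hochberg were deposited beside these, the latter left empty where a base mean is low. The deposited score is the Wald statistic. The deposited signal is the base mean, an average over libraries of counts divided by size factors, and it sums to 40543130 and 41201112 over all genes. Total counts and values per library were not given in the tables, so counting intervals and exact tests over replicates were not computed, and the SE alone gives the precision. Because 2 replicates enter each condition, the SE rests largely on variances that the authors' DESeq2 fit shares across genes.

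Column 3-1 of the KD table was read as shA1 and 4-2 as shB2, from the study's supplementary headings. The difference between the hairpins was tested as the difference of the log2 fold changes over the root of their summed squared SEs, with Benjamini-Hochberg adjustment over 16673 genes. This step was tested on simulated data. The implied level in a condition was solved from the base mean and fold changes with equal numbers of libraries. Named genes were those with an adjusted p-value under 0.01 in a comparison, past the threshold between hairpins, or with a base mean of at least 500. The members and lists were chosen with earlier results of these data known. Locations and lengths came from GENCODE release 44 (60261 of 60558 identifiers matched), and promoters from RefSeq. Python 3.11.15, pandas 2.3.3 and scipy 1.17.1 were used. The planned edgeR test, replicate block and leaving out of replicates need values per library and were not run. Alternatives were other thresholds, adjustment over other sets of genes, recentred fold changes and a smaller SE of the difference. Some genes of the fixed lists are not reported here by name, and the count of calls among the death receptor effectors is left out.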

Additional observations from a re-analysis of the deposited data

Results flagged for a closer look

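The response to GSE1 KD differed between the hairpins for 5 genes of the family by the Wald test of the difference. The log2 fold change with shB2 minus that with shA1 was -3.45 for LTB, -1.74 for TNF, -1.34 for TNFRSF1A, -1.30 for TNFRSF25 and 3.03 for TNFRSF11B. The signs against EV were opposite for LTB, TNF and TNFRSF1A. GSE1 mRNA was reduced to a similar extent, with a difference of -0.02 (SE 0.19). This value does not cover the protein, for which the paper reports shB2 as the more effective hairpin by western blot. In the comparison of shB2 with shA1, 9 of 11 interferon-stimulated genes were lower with shB2, against 2.2% of all genes tested. The part of GSE1 level or of the interferon-stimulated genes in the superfamily values was not tested.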

How the results depend on the processing

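No paired analysis was possible because the tables hold no value per library, and leaving out a replicate was not run for the same reason. With a log2 fold change over 2 required, 2 genes of the family were called with shA1 (TNFSF10 and TNFRSF10B), 2 with shB2 (TNFSF9 and TNFRSF11B) and 0 with MC2580. Under the other alternatives the counts stayed within 1.5 times, at 12 to 18 with shA1, 12 to 16 with shB2, 2 to 3 with MC2580 and 5 to 7 between the hairpins, and the calls made at the reported threshold were kept except TNFRSF8 with shA1, which was lost (adjusted p = 0.0167) when the adjustment ran over all p-values given. At an adjusted p under 0.05, TNFRSF14 was gained with shA1, TNFRSF10D with MC2580 and TNFRSF12A between the hairpins. With the smaller SE of the difference, which holds if the EV libraries carry an equal share of both errors, TNFRSF12A and TNFSF9 were gained. Recentred on the median of genes whose base mean reached 50, TNFRSF10A with MC2580 changed sign to 0.017, far inside its SE. Of 500 pairs of a named gene and an alternative, 462 kept direction and call, 24 lost the call, 13 gained it and 1 changed sign. Over all genes, 3221 and 4707 passed with shA1 and shB2 without the threshold on size, where 851 and 1520 passed with it. Genes with a base mean under 50 had 95% intervals wider than 1 on either side.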
